A study of Homo sapiens with 16 samples.

Results

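The cytosolic ribosomal protein genes encode the protein components of the 40S and 60S subunits of the ribosome outside mitochondria. They were taken by symbol, as all genes named RPL or RPS with a number and at most 1 letter A, X or L, together with RPLP0, RPLP1, RPLP2 and RPSA. This gave 81 of the 36337 gene names on the array, 32 of the 40S and 49 of the 60S subunit, each represented by the probe with the highest mean over all arrays. RNA came from RPMI-8226 and MM.1S, 2 established multiple myeloma cell lines, so each line stands for 1 tumour only. Each line was given DMSO (the vehicle), 1 µM GSK126, an inhibitor of the H3K27 methyltransferase EZH2, 1 µM UNC0638, an inhibitor of the H3K9 methyltransferase G9a, or both inhibitors at 1 µM each, for 6 days. Each of the 8 groups had 2 biological replicates, and each sample was hybridised to its own 1-colour array.

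Ribosomal proteins are made in near-equal amounts and are assembled with ribosomal RNA in the nucleolus. Their genes are among the most strongly transcribed in dividing cells. Most of their messages begin with a cytosine followed by a run of pyrimidines, the 5′ terminal oligopyrimidine (TOP) tract, through which mTOR signalling and LARP1 control their translation and stability. Plasma cells and myeloma cells, which secrete large amounts of protein, depend on a high ribosome content.

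The start of the message is shown for 11 members on which the results below turn, to give the element that most of these messages share and the few without it as defined here. RefSeq start sites on GRCh38.p14 were matched for 64 of the 81 members. Each line gives 5 bases before the annotated start and 20 bases from it, 5′ to 3′ on the transcribed strand. Capitals mark a tract, defined as a C at the start followed by at least 4 bases that are C or T, and its whole run.
RPS3 (chr11:75399513-75399537, plus strand): cacttCCTTTCCTTTCagcggagcg
RPSA (chr3:39406715-39406739, plus strand): cctgtCTTTTCCgtgctacctgcag
RPL14 (chr3:40457334-40457358, plus strand): tcttcCTTCTCgcctaacgccgcca
RPS14 (chr5:150449720-150449744, minus strand): ccactCTCTCTTTCCggtgtggagt
RPL36 (chr19:5690290-5690314, plus strand): ccagcCCTTCCgccacggccgtctc
RPLP0 (chr12:120201092-120201116, minus strand): gaggcCCTTCTCTCgccaggcgtcc
RPL13A (chr19:49487603-49487627, plus strand): tcctcCTTTTCCaagcggctgccga
RPS18 (chr6:33272070-33272094, plus strand): ccgctCTCTCTTCCacaggaggcct
RPL3 (chr22:39319604-39319628, minus strand): ccggcctctaccggcgggatttgat
RPS27L (chr15:63157458-63157482, minus strand): cgagcgcagatcgcttgcagcttgc
RPL10L (chr14:46651762-46651786, minus strand): taagagagcgcattttgacttcgag
A tract was present at 1 or more annotated starts of 46 of the 64 matched members (71.9%) and of 1358 of 27241 other genes (4.99%). It was 5 to 19 bases long in the members, with a median of 8. Of the 3 genes without one in this list, RPL3 starts with a C in a pyrimidine run of 4 bases, under the 5 required. RPS27L and RPL10L do not start with a C. This holds for the annotated start only. Since fewer than 80% of the members had an entry, a comparison of the members' responses by tract would be void and is not given. RPS2 and RPL5 were among the members without an entry.

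A level below is the log2 intensity of a probe minus the 75th percentile of its array, so a level of 0 is as bright as that percentile. Levels of different probes are not compared. A difference is a difference of group means on this log2 scale. A gene is called where limma, fitted over all probes kept, gave a Benjamini-Hochberg adjusted p under 0.05, and "rose" and "fell" are used of called genes only. The 81 members were all kept in both lines, and 80 of them were well above background on all 16 arrays (RPL27A missed 1 of 2 MM.1S UNC0638 arrays). They are extreme in brightness, with a median percentile of 99.6 among the probes kept. In each line 78 of 81 lay in the brightest of 20 equal bins, and the other 3, RPL3L, RPL27A and RPL39L, were dimmer. Their spots made up 9.64 to 10.7% of all probe intensity on the RPMI-8226 arrays and 7.54 to 8.79% on the MM.1S arrays. No spot was saturated.

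All 7 plasma cell markers examined, among them SDC1, TNFRSF17 and IRF4, were well above background on every array. ALAS2, of erythroid cells, was not well above background on any array. With both inhibitors 4 of 6 other-lineage markers kept rose in RPMI-8226 (CD3D, CD3E, COL1A2 and CD14) and 1 of 5, CD3E, in MM.1S, and 3 of 7 and 7 of 7 plasma cell markers fell. The log2 of the summed level of the other-lineage markers was 4.84 to 5.29 with DMSO and 4.35 to 4.53 with both inhibitors in RPMI-8226, and 2.10 to 2.18 and 1.60 to 1.62 in MM.1S. That of the plasma cell markers was 7.996 to 8.20 and 7.27 to 7.68 in RPMI-8226, and 8.84 to 8.87 and 8.32 to 8.32 in MM.1S. The part of these markers in the ribosomal protein values was not tested. In RNA from whole cultures, less message per cell and fewer cells that carry it cannot be told apart.

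In MM.1S cells given both inhibitors, most ribosomal protein genes fell. The median level of the 81 genes was 7.66 and 7.59 on the DMSO arrays, 7.35 and 7.45 with GSK126, 7.22 and 7.13 with UNC0638, and 6.98 and 6.97 with both. The 4 pairs of arrays did not overlap in this median, and the arrays given both inhibitors were lowest. In RPMI-8226 the medians were 8.07 and 8.21 with DMSO, 7.98 and 8.02 with GSK126, 7.95 and 7.93 with UNC0638, and 7.77 and 7.94 with both. There the treated arrays lay below both DMSO arrays, but those of UNC0638 and of both inhibitors overlapped. In each line the DMSO arrays lay in column 1 of the slide and those of GSK126 in column 2. The UNC0638 arrays lay in column 3 and those of both inhibitors in column 4. Treatment and slide column therefore cannot be told apart in any comparison within a line.

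**Figure D1:**
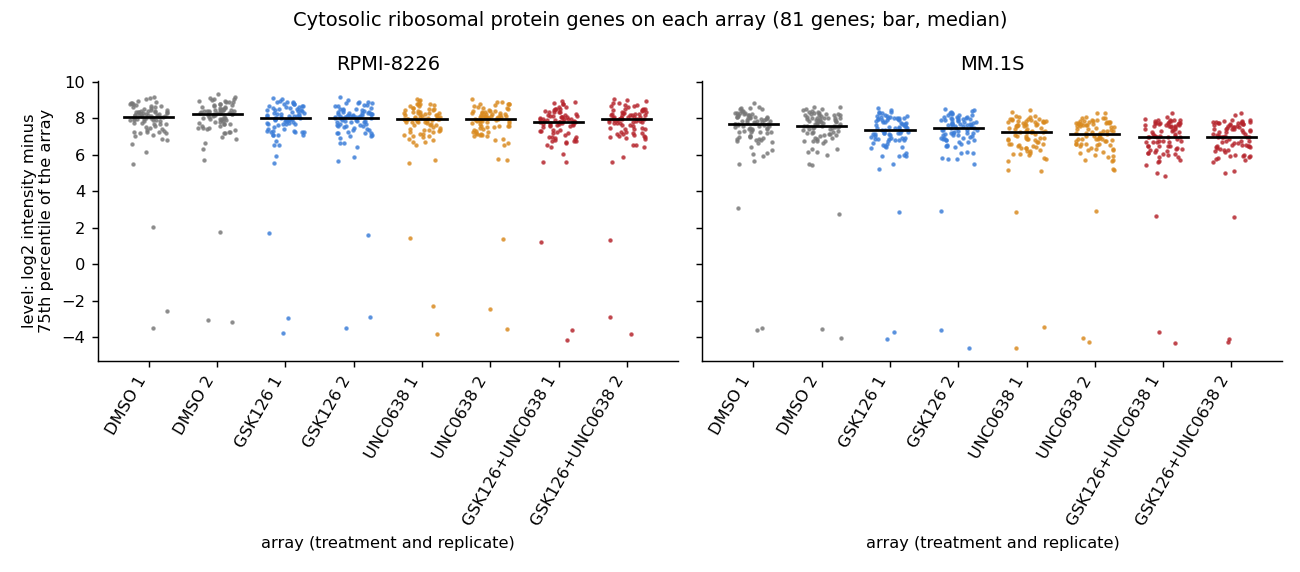
Level of each of the 81 ribosomal protein genes (dots; log2 intensity minus the 75th percentile of the array) on each array, with the median as a bar, for RPMI-8226 on the left and MM.1S on the right. The bars step down from 7.66 and 7.59 (DMSO) to 6.98 and 6.97 (both inhibitors) in MM.1S, and the 3 lowest dots on each array are RPL39L, RPL27A and RPL3L.

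With both inhibitors in MM.1S, limma called 76 of the 81 genes lower and 1, RPS27L, higher. Over all probes kept, 31.7% were called lower and 22.2% higher. The median difference from DMSO was -0.56 (quartiles -0.73 and -0.45), or 68.0% of the DMSO intensity. Both subunits moved alike, with 31 of 32 genes of the 40S and 45 of 49 of the 60S called lower and medians of -0.54 and -0.57. The arrays given both inhibitors lay wholly below the DMSO arrays for 78 members, against 46.0% of all probes kept. The 4 genes not called were RPLP1, RPL39L, RPL31 and RPL3L.

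Other bright probes moved the same way, so the size of the fall depended on what it was set against. Among 1118 probes of other genes in the brightest bin, 66.4% were called lower with both inhibitors. The median difference of equally bright probes was -0.48, so the members' median lay 0.09 below it, and 57 of 81 members were below their own bin. Set against the 100 nearest probes in brightness, a comparison added after the data were seen, the members' median lay 0.16 below and 66 of 81 were lower. The bin medians of other probes fell with brightness in both lines, from 0.04 in the second dimmest to -0.48 in the brightest bin in MM.1S and from 0.01 to -0.30 in RPMI-8226.

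**Figure D2:**
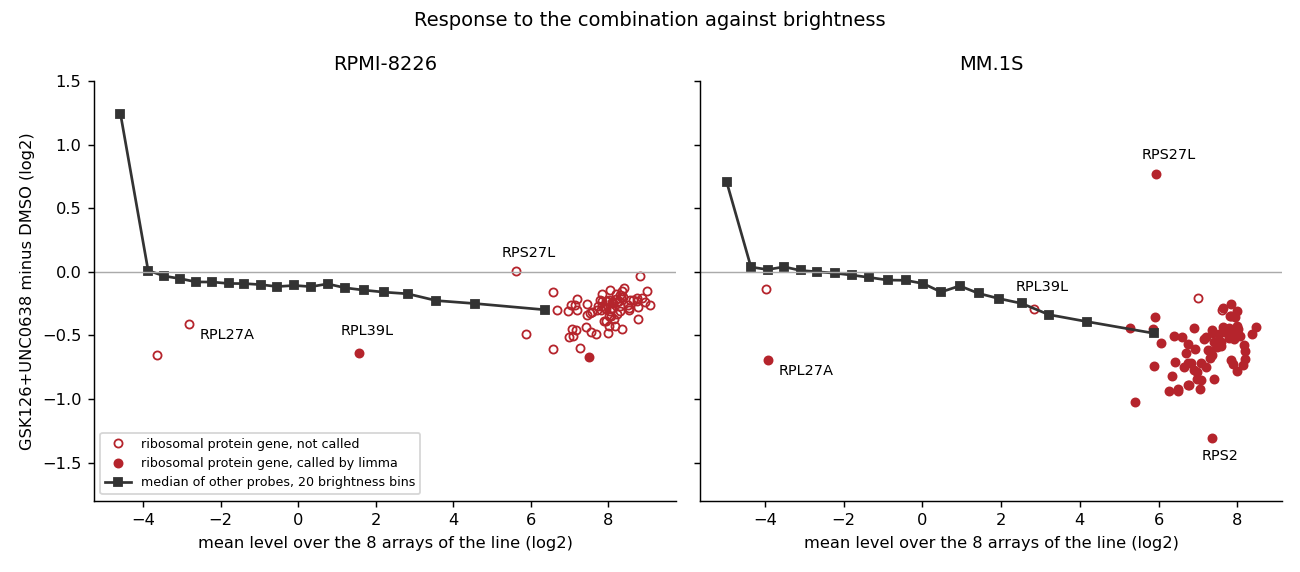
Difference between both inhibitors and DMSO (log2) against mean level over the 8 arrays of the line (log2); circles are 79 of the ribosomal protein genes, filled where called by limma, and squares join the medians of other probes in 20 brightness bins. In MM.1S most members sit at or below the brightest bin's median of -0.48, with RPS2 the lowest of those plotted and RPS27L above 0, and in RPMI-8226 they scatter around -0.30.

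How the arrays were scaled changed the count in MM.1S and, under cyclic loess, the sign of the members' median. With both inhibitors, 76 genes were called lower and 1 higher under the 75th percentile, 30 and 1 under quantile normalization, and 9 and 7 under cyclic loess, where the median difference was 0.04. Scaling to the 75th percentile of detected probes gave 60 and 1, scaling to spike-in probes 33 and 1, and normexp background correction 76 and 1. These scalings also moved the median of all probes kept, from -0.12 to 0.14 under spike-in scaling, to 0.07 under the percentile of detected probes and to 0.05 under cyclic loess. Relative to the median of all probes kept, the members' median was -0.44 under the 75th percentile and under spike-in scaling, -0.03 under quantile normalization and -0.00201 under cyclic loess. Over all probes kept, cyclic loess called 20.5% lower and 28.7% higher, and spike-in scaling 14.8% and 30.2%. Quantile normalization called 29.4% and 23.4%, the percentile of detected probes 21.6% and 29.2%, and normexp 32.6% and 22.3%.

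**Figure D3:**
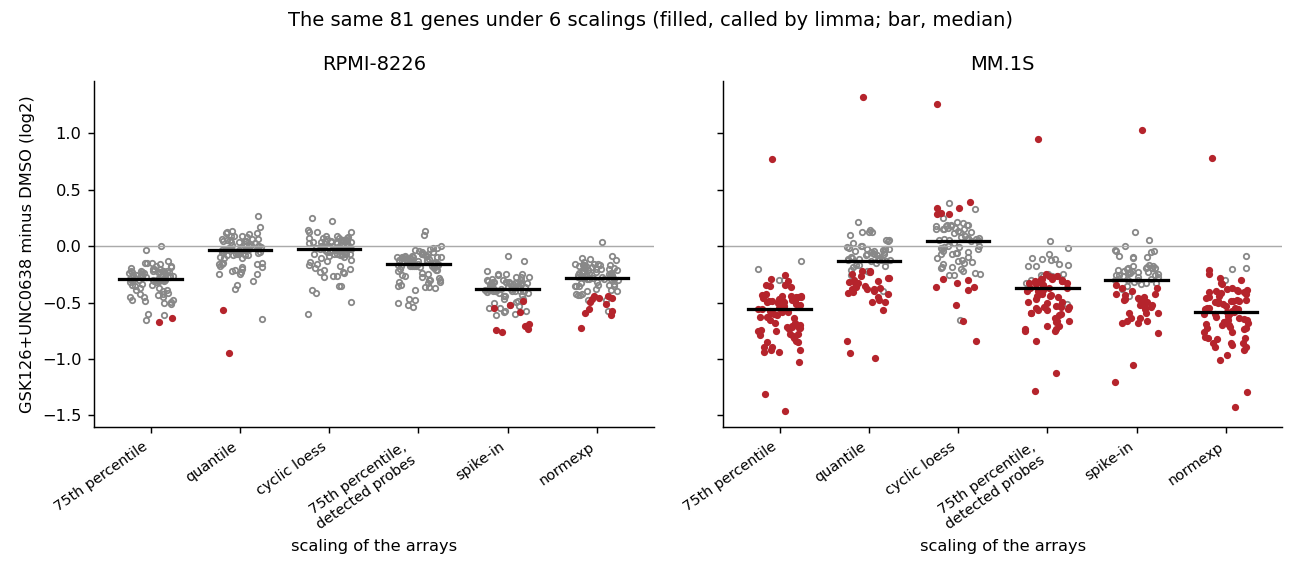
Difference between both inhibitors and DMSO (log2) of the same 81 genes under 6 scalings of the arrays; filled points were called by limma and the bar is the median. In MM.1S the median runs from -0.58 (normexp) to 0.04 (cyclic loess), while RPS27L is the highest point under each scaling.

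The direction was called alike under all 6 scalings for some members in MM.1S given both inhibitors. Of these, RPS2, RPS3, RPSA, RPS14, RPL14, RPL36, RPL5 and RPL3 fell, and RPS27L rose. In all, 37 members had the same sign under each scaling, and 6 were called in opposite directions by different scalings (RPL19, RPL35A, RPLP2, RPS18, RPS20 and RPS28, higher under cyclic loess). Values below are from the 75th percentile unless another scaling is named.

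RPS2 is a 40S protein of the mRNA entry side. Its level in MM.1S was 8.05 and 8.07 with DMSO, 7.69 and 7.78 with GSK126, 6.92 and 6.87 with UNC0638, and 6.77 and 6.74 with both, in 4 groups without overlap. Those given UNC0638, alone or with GSK126, were lowest. The difference for both inhibitors was -1.31 (SE 0.08, limma adjusted p = 1.79e-04), or 40.4% of DMSO, and it ran from -1.31 to -0.67 over the 6 scalings. All 6 RPS2 probes were lower, by differences of -1.15 to -1.90.

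RPS3, a 40S protein that also acts as a DNA repair nuclease, had levels of 5.91 and 5.97 with DMSO and 4.85 and 4.98 with both inhibitors (difference -1.03, SE 0.10, limma adjusted p = 7.1e-04). RPSA, the 40S protein also known as the laminin receptor, went from 6.93 and 6.94 to 6.00 and 5.99 (difference -0.94, SE 0.08). RPS14, a 40S protein whose loss of 1 copy marks the 5q- syndrome, went from 7.59 and 7.49 to 6.69 and 6.55 (difference -0.92, 52.9% of DMSO). For these 3 genes the GSK126 and UNC0638 arrays lay between the DMSO arrays and those given both, without overlap. The other probes of RPSA and RPS14 also had lower values with both inhibitors, from -0.67 to -1.25 over 5 RPSA probes and from -0.43 to -0.92 over 3 RPS14 probes.

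In the 60S subunit, RPL14 was the lowest, from 6.74 and 6.73 with DMSO to 5.66 and 5.94 with both inhibitors (difference -0.93, SE 0.10, limma adjusted p = 9.3e-04). RPL36 went from 6.98 and 6.92 with DMSO to 6.07 and 6.00 with both inhibitors (difference -0.92, 52.9% of DMSO). RPL3, a protein close to the peptidyl transferase centre, went from 7.23 and 7.28 to 6.31 and 6.41 (difference -0.89, 53.9% of DMSO). RPL5, which binds 5S ribosomal RNA, had levels of 7.23 and 7.26 with DMSO, 6.89 and 6.91 with GSK126, 6.48 and 6.52 with UNC0638, and 6.33 and 6.37 with both. Its difference for both inhibitors was -0.89 (53.8% of DMSO), and the 4 RPL5 probes ran from -0.89 to -1.33. RPL11, its partner in the 5S particle that binds MDM2 when ribosome assembly fails, fell under the 75th percentile (-0.49, limma adjusted p = 0.00332), but was at 0.15 under cyclic loess.

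RPS27L went the other way. It is a paralog of the 40S protein RPS27 and is known as a p53 target gene. Its level in MM.1S was 5.66 and 5.41 with DMSO, 5.95 and 5.78 with GSK126, 6.04 and 5.94 with UNC0638, and 6.36 and 6.25 with both, and both DMSO arrays lay below all 6 treated arrays. The difference for both inhibitors was 0.77 (SE 0.12, 170.5% of DMSO, limma adjusted p = 0.00289) and lay between 0.77 and 1.33 over the 6 scalings. MDM2, another p53 target, also rose in MM.1S (0.48, limma adjusted p = 0.0307), whereas CDKN1A was at 0.19 (limma adjusted p = 0.471). Of all probes kept 22.2% were called higher there, and a part of p53 was not tested. RPS27L has 1 probe on the array.

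**Figure D4:**
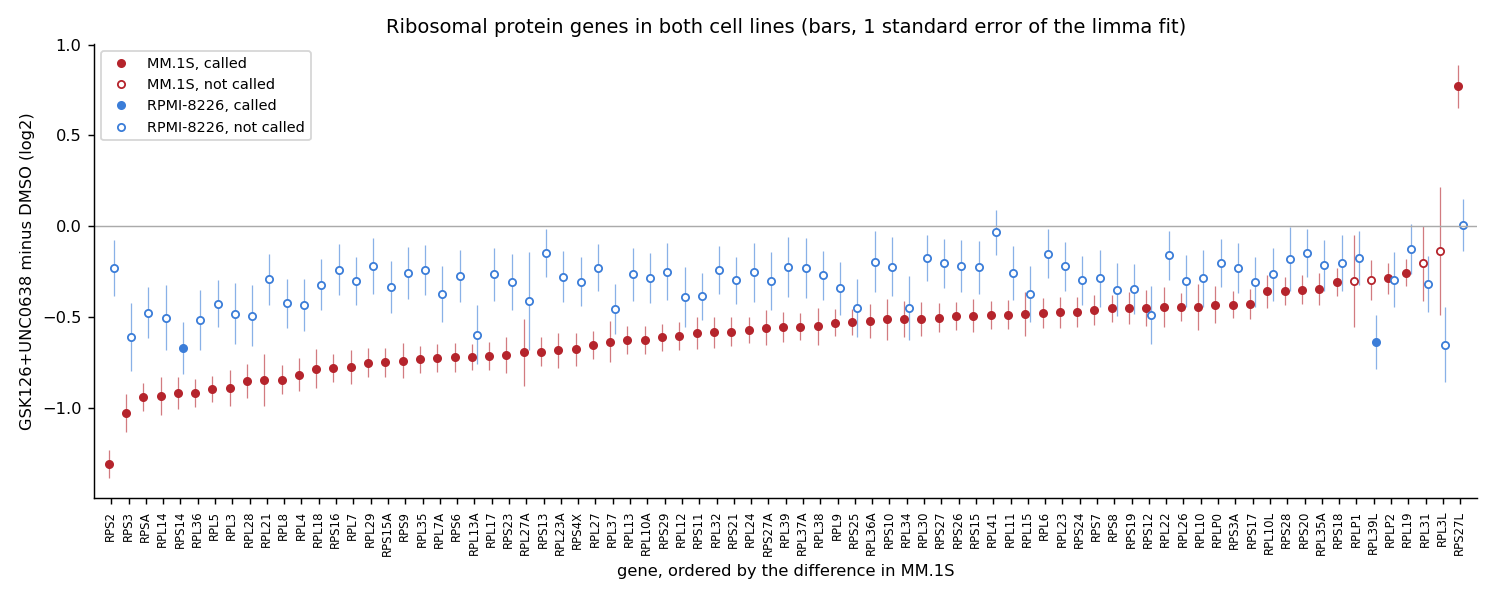
Difference between both inhibitors and DMSO (log2, bars 1 standard error of the limma fit) for each of 79 genes, ordered by its value in MM.1S (red) with RPMI-8226 in blue; filled points were called by limma. The red points run from -1.31 (RPS2) to 0.77 (RPS27L), and the blue points lie between -0.67 and 0.01.

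Of the 3 stalk proteins, which recruit elongation factors to the 60S subunit, RPLP0 and RPLP2 were called lower under the 75th percentile and under normexp, and under neither of the percentile over detected probes and spike-in scaling. RPLP0 went from 8.81 and 8.63 to 8.29 and 8.28 (difference -0.43, limma adjusted p = 0.0132) and RPLP2 from 7.86 and 7.77 to 7.54 and 7.52 (-0.29, limma adjusted p = 0.0291), but under cyclic loess both were higher with the inhibitors (0.25 and 0.34), as RPLP2 was under quantile normalization (0.13). RPLP1 was not called (-0.30, limma adjusted p = 0.348; 0.10 under quantile normalization and 0.33 under cyclic loess). Its 2 GSK126 arrays in MM.1S differed by 0.84 on the log2 scale, at 6.84 and 7.68, and without either of them it was called (limma adjusted p = 0.0285 and 0.0284). The call of RPLP0 was lost without DMSO replicate 1 or combination replicate 2 (adjusted p 0.0709 and 0.0566), and that of RPLP2 without any 1 of the DMSO or combination arrays (0.0608 to 0.132).

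RPLP0, RPL13A and RPS18 are common reference genes for quantitative PCR. In MM.1S given both inhibitors they stood at 74.2, 60.7 and 80.8% of DMSO and all 3 were called lower under the 75th percentile, while cyclic loess put RPLP0 and RPS18 higher (0.25 and 0.34) and quantile normalization RPS18 (0.13). Under the 75th percentile 76 of all 81 members and 31.7% of all probes kept were called lower. RPL13A had levels of 7.16 and 7.15 with DMSO and 6.45 and 6.41 with both inhibitors (difference -0.72, limma adjusted p = 6.73e-04). Leaving out DMSO replicate 1, DMSO replicate 2 or combination replicate 1 ended the call of RPS18 (adjusted p 0.0584 to 0.0713).

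Of 6 members altered in inherited anaemia, the 5q- syndrome or in leukaemia and myeloma, all were called lower with both inhibitors in MM.1S under the 75th percentile, and RPL5 and RPS14 under each of the 6 scalings. Under the 75th percentile 76 of all 81 members were called lower, so this does not set the 6 apart. The share was 66.4% for the other probes of the brightest bin and 31.7% for all probes kept. Besides RPL5, RPL11 and RPS14, the disease-linked members were RPS19 (-0.45, limma adjusted p = 0.00665), RPL22 (-0.45, limma adjusted p = 0.0159) and RPL10 (-0.44, limma adjusted p = 0.0271). The last 3 were higher under cyclic loess (0.19, 0.05 and 0.21) and RPL22 also under quantile normalization (0.03). The call of RPL22 was lost without DMSO replicate 1, DMSO replicate 2 or combination replicate 1 (adjusted p 0.0628 to 0.074), and that of RPL10 without DMSO replicate 1, DMSO replicate 2 or combination replicate 2 (0.0907 to 0.106). One dim RPL10 probe was called higher (1.21, at a level of -4.35) where the brighter ones were lower.

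Of the tissue-restricted paralogs, RPL39L, a paralog of RPL39 best known from testis, had levels of 3.06 and 2.77 with DMSO and 2.63 and 2.61 with both inhibitors in MM.1S and was not called (-0.30, limma adjusted p = 0.0657), except without DMSO replicate 2 (adjusted p = 0.0238). RPL3L, a muscle paralog of RPL3, was near the dim end of the array, between -4.59 and -3.44 in MM.1S, and was not called (-0.13, limma adjusted p = 0.768). The probe of RPL10L, an intronless testis paralog, fell by 0.36 under the 75th percentile (limma adjusted p = 0.018) but was 0.18 higher under cyclic loess and 0.12 under quantile normalization. That call was lost without DMSO replicate 2 or combination replicate 1 (adjusted p 0.0873 and 0.0772). RPL10L is nearly identical to RPL10 in sequence, so its probe may read RPL10 message and the 2 genes cannot be told apart here. Processed pseudogenes of many ribosomal protein genes raise the same uncertainty for other probes. RPL27A, of the 60S subunit, was also dim on its 1 probe (levels -4.55 to -3.51 in MM.1S).

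With UNC0638 alone in MM.1S, limma called 65 members lower and 1, RPS27L, higher under the 75th percentile, where 16.5% of all probes kept were called lower and 12.8% higher. The median difference was -0.43 (74.2% of DMSO), equally bright probes had a median of -0.28, and 45.0% of the other probes of the brightest bin were called lower. Other scalings called 13 (quantile normalization), 10 (cyclic loess), 5 (spike-in scaling), 47 (percentile over detected probes) and 72 (normexp) members lower. Of all probes kept they called 12.3, 9.13, 3.25, 10.8 and 18.7% lower, in the same order. The count of 66 called fell to 28 and 29 without DMSO replicate 1 or 2, and to 35 and 22 without UNC0638 replicate 1 or 2. RPS2 (-1.17, limma adjusted p = 8.19e-04), RPS3 (-0.77) and RPL5 (-0.74) fell under all 6 scalings. RPS27L was called higher under each of them, by 0.45 (limma adjusted p = 0.0357) under the 75th percentile. There its call was lost when any array other than DMSO replicate 1 was left out (adjusted p 0.0519 to 0.15).

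GSK126 alone called 1 member in MM.1S, RPL5 (-0.34, SE 0.07, limma adjusted p = 0.0466), where 2.39% of all probes kept and 4.20% of the other probes of the brightest bin were called lower. That call was lost whichever array was left out, at adjusted p-values of 0.0731 to 0.19, and under 4 of the other 5 scalings. At an unadjusted p under 0.05 there were 37 members, but no share of all probes is given at that threshold. The median difference was -0.20 (86.9% of DMSO), beside -0.16 for equally bright probes. RPS2 was at -0.33 (limma adjusted p = 0.0543) and RPS27L at 0.33 (limma adjusted p = 0.147).

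Both inhibitors against GSK126 alone gave 59 members lower and RPS27L higher in MM.1S under the 75th percentile, where 22.0% of all probes kept were called lower and 15.1% higher. Among the other probes of the brightest bin 51.4% were called lower. RPS2 (-0.98), RPSA (-0.78) and RPS3 (-0.71) were lower, and RPS27L higher, under all 6 scalings. Other scalings called 12 (quantile normalization), 4 (cyclic loess, with 5 higher and a median of 0.04), 7 (spike-in scaling), 35 (percentile over detected probes) and 64 (normexp) members lower. The shares of all probes kept under those scalings are not given for this comparison. The count of 60 fell to 31 and 26 without GSK126 replicate 1 or 2 and to 35 without combination replicate 2. Against UNC0638 alone, 1 member was called, RPL8 (-0.33, limma adjusted p = 0.0466), where 7.43% of all probes kept and 15.7% of the other probes of the brightest bin were called lower, and the call was lost whichever array was left out. The median difference there was -0.14, and that of equally bright probes -0.18.

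In RPMI-8226 few of the same genes were called. With both inhibitors, 2 members were called lower, RPS14 and RPL39L, where 5.17% of all probes kept and 4.82% of the other probes of the brightest bin were called lower. At an unadjusted p under 0.05 there were 23 members, again without a share of all probes at that threshold. The median difference was -0.29 (82.0% of DMSO), beside -0.30 for equally bright probes, and 45 of 81 members were above their 100 nearest probes in brightness. Although the arrays given both inhibitors lay wholly below the DMSO arrays for 73 members (39.2% of all probes kept), the standard errors were larger than in MM.1S, with a median of 0.14 against 0.08. These fits left the pairing of replicates out, and with the replicate number as a block, 6 members were called lower. The count was 2 under quantile normalization, 0 under cyclic loess and over detected probes, 9 under spike-in scaling, 12 under normexp, 18 with an eBayes trend and 30 with all 16 arrays in 1 fit. Of all probes kept, quantile normalization called 6.19% lower, cyclic loess 3.08% and the percentile over detected probes 2.75%. Spike-in scaling called 9.47% lower and normexp 7.04%. No share of all probes kept is given for the block, the trend or the fit of all 16 arrays.

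RPS14 in RPMI-8226 had levels of 7.72 and 7.81 with DMSO, 7.67 and 7.58 with GSK126, 7.48 and 7.54 with UNC0638, and 6.98 and 7.22 with both (difference -0.67, SE 0.14, limma adjusted p = 0.0331). The arrays given both inhibitors lay below all others. Its 2 other probes were at -0.65 (limma adjusted p = 0.0713) and -0.02 (limma adjusted p = 0.942). RPL39L went from 2.03 and 1.77 with DMSO to 1.70 and 1.63 with GSK126, 1.46 and 1.39 with UNC0638, and 1.20 and 1.34 with both (difference -0.64, SE 0.15, limma adjusted p = 0.0414), in 4 groups without overlap. Leaving out any 1 array ended the RPL39L call (adjusted p 0.0598 to 0.194), and leaving out any but GSK126 replicate 2 ended that of RPS14 (0.0508 to 0.167).

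RPS2, RPS3, RPSA, RPL5 and RPS27L were not called in RPMI-8226 under the 75th percentile. RPS2 was at 8.74 and 8.98 with DMSO and 8.60 and 8.66 with both inhibitors (-0.23, limma adjusted p = 0.353). RPS3 was at 6.81 and 6.96 with DMSO and 6.04 and 6.52 with both (-0.61, limma adjusted p = 0.0821), RPSA at -0.48 (limma adjusted p = 0.0739) and RPL5 at -0.42 (limma adjusted p = 0.0794). RPS27L had levels of 5.49 and 5.71 with DMSO and 5.60 and 5.62 with both, which overlapped (0.01, limma adjusted p = 0.983). Among the reference genes, RPL13A was at -0.60 (limma adjusted p = 0.0602), RPLP0 at -0.20 (limma adjusted p = 0.334) and RPS18 at -0.20 (limma adjusted p = 0.408).

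Single inhibitors called no member in RPMI-8226 by limma. GSK126 called 0 of 81, with 0 at an unadjusted p under 0.05, and 0.599% of all probes kept in either direction. UNC0638 called 0, with 7 at an unadjusted p under 0.05, and 0.634% of all probes kept. The members' medians were -0.13 and -0.20, beside -0.11 and -0.10 for equally bright probes. Both inhibitors against GSK126 or against UNC0638 alone also gave 0 members by limma, with 5 and 2 at an unadjusted p under 0.05, where 2.55 and 3.39% of all probes kept were called in either direction. The shares in this paragraph are at the adjusted threshold, and none is given for the unadjusted counts.

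Whether the lines responded differently was tested as the RPMI-8226 response minus the MM.1S response. For both inhibitors, 7 members were called with a higher value in RPMI-8226 and 1, RPS27L, with a lower one, where 7.28% of all probes kept were higher and 6.00% lower. With the replicate number as a block, 12 were called higher and 2 lower, without a share of all probes for that fit. RPS2 differed by 1.08 (SE 0.16, limma adjusted p = 0.00258) and RPS27L by -0.76 (SE 0.18, limma adjusted p = 0.0202), and both were called under all 6 scalings. RPS13 (0.54, limma adjusted p = 0.029) and RPS16 (0.54, limma adjusted p = 0.0335), both of the 40S subunit, were not called under quantile, cyclic loess or spike-in scaling. RPS13 had levels of 8.42 and 8.37 with DMSO and 8.16 and 8.34 with both inhibitors in RPMI-8226, and 8.16 and 8.19 against 7.54 and 7.43 in MM.1S. The call of RPS27L was lost without RPMI-8226 DMSO replicate 2, MM.1S DMSO replicate 2 or MM.1S combination replicate 1 (adjusted p 0.0597 to 0.0793). Omitting replicate 2 of RPMI-8226 DMSO, of MM.1S UNC0638 or of the combination in either line, or either MM.1S DMSO array, ended the call of RPS13 (0.0527 to 0.104). The call of RPS16 ended on omitting any MM.1S array, either UNC0638 array of RPMI-8226, its DMSO replicate 1 or its combination replicate 2 (0.0501 to 0.112). The count of 8 ran from 2 without MM.1S DMSO replicate 2 to 15 without RPMI-8226 combination replicate 1.

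For UNC0638 alone, the response of 2 members differed, both with a higher value in RPMI-8226, where 1.11% of all probes kept were called that way. RPS2 was 1 of them (0.96, limma adjusted p = 0.0149). Neither call was made under cyclic loess or spike-in scaling. That of RPS2 was also lost without RPMI-8226 UNC0638 replicate 1, either MM.1S DMSO array or MM.1S UNC0638 replicate 2 (adjusted p 0.0505 to 0.0614). For GSK126, limma called 0 members, where 0.783% of all probes kept were called in either direction. There was 1 member at an unadjusted p under 0.05, without a share of all probes at that threshold. A missed threshold does not show that the responses were equal.

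**Figure D5:**
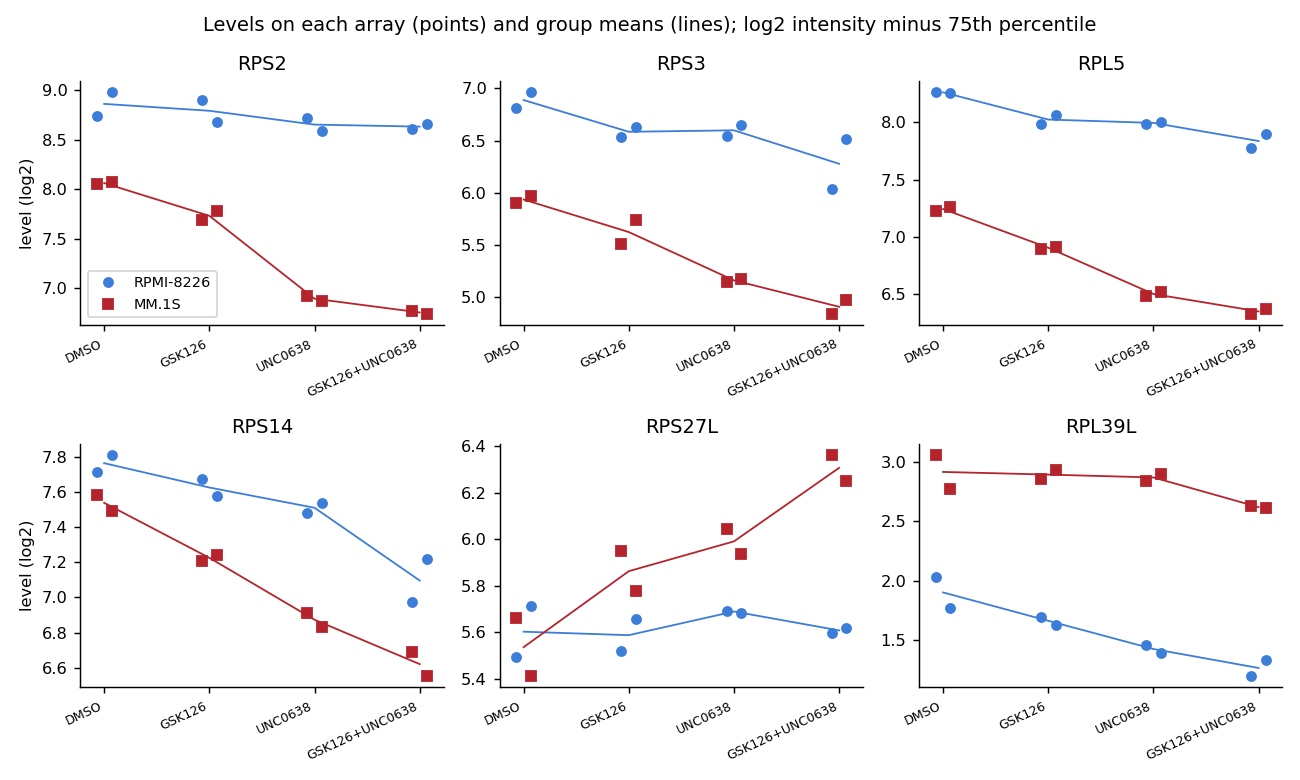
Levels (log2 intensity minus the 75th percentile) of RPS2, RPS3, RPL5, RPS14, RPS27L and RPL39L on each array (points) and group means (lines), RPMI-8226 as blue circles and MM.1S as red squares; each panel has its own vertical range. RPS2 falls from 8.05 to 6.77 in MM.1S and is at 8.74 and 8.60 in RPMI-8226 (replicate 1 of DMSO and of both inhibitors), and RPS27L goes from 5.66 to 6.36 in MM.1S and from 5.49 to 5.60 in RPMI-8226.

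The 2 lines already differed without inhibitor. In DMSO, 58 members were called higher in RPMI-8226 than in MM.1S and 1, RPL39L, lower, where 28.4% of all probes kept were higher and 29.3% lower. The median difference was 0.43, or 135% of the MM.1S intensity. This comparison was not set beside equally bright probes, so whether other bright probes shifted alike was not tested. Quantile normalization called 29 members higher and 4 lower (median 0.13), cyclic loess 30 and 4 (0.15) and spike-in scaling 31 and 2 (0.22). The percentile over detected probes called 49 higher and 1 lower, and normexp 52 and 1. The shares of all probes kept under those scalings are not given. The 60S subunit had 39 of 49 genes higher and the 40S subunit 19 of 32, with medians of 0.50 and 0.35. All arrays of a line shared 1 slide and 1 scan, so line and slide cannot be told apart in this comparison or in the tests of the response.

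RPL30 was at 7.90 and 7.95 in RPMI-8226 against 6.65 and 6.66 in MM.1S, a difference of 1.27 in DMSO (limma adjusted p = 1.58e-06). RPL22 was at 1.14 (limma adjusted p = 1.02e-05). RPL39L was lower in RPMI-8226, at 2.03 and 1.77 against 3.06 and 2.77 (-1.01, limma adjusted p = 5.8e-05). RPS27L (0.07, limma adjusted p = 0.677), RPS14 (0.23, limma adjusted p = 0.106), RPS19 (-0.07) and RPS16 (0.01) had small differences between the lines. Under all 6 scalings 26 members were higher in RPMI-8226 and RPL39L lower.

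Other genes of translation were lower together with the members in MM.1S given both inhibitors. There 31.7% of all probes kept and 66.4% of the other probes of the brightest bin were called lower. The lists in this paragraph are not set beside equally bright probes. Of 28 initiation factor genes kept, 25 were called lower (median -0.68), among them EIF2S2 (-1.27, limma adjusted p = 4.76e-04) and EIF4A1, the mRNA helicase (-1.17, limma adjusted p = 2.64e-04). All 6 elongation factor genes and all 3 termination and recycling genes kept were called lower, with medians of -0.80 and -0.99. The 6 ribosomal protein genes that the naming rule leaves out, such as FAU (-0.74), which encodes a ribosomal protein fused to a ubiquitin-like protein, were all called lower, as were 6 of 6 other messages with a TOP tract (median -0.54). Under cyclic loess 12 of 28 initiation factors were called lower and 2 higher (median -0.20), 2 of 6 elongation factors (-0.21), all 3 termination and recycling genes (-0.74), 2 of the 6 proteins outside the rule (-0.10) and 2 of 6 other TOP messages, whose median was 0.00881. Of all probes kept in MM.1S, cyclic loess called 20.5% lower. In RPMI-8226 none of these genes was called by limma, where 5.17% of all probes kept were called lower. The medians there were -0.33 for initiation, -0.35 for elongation, -0.28 for the proteins outside the rule and -0.32 for the other TOP messages.

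The upstream regulators varied more, where 31.7% of all probes kept in MM.1S were called lower and 22.2% higher. Of 11 genes of the mTOR pathway and its TOP control, 6 were called lower and 1 higher in MM.1S, with EIF4EBP1, the mTOR-regulated repressor of initiation, at -1.63 (limma adjusted p = 2.4e-04) and TSC1, an mTOR inhibitor, at 0.75 (limma adjusted p = 0.00214). Of 7 factors that bind ribosomal protein promoters, 3 were called lower, MYC (-1.71, limma adjusted p = 2.81e-04), GABPB1 (-1.13) and TBP (-0.56), while the median was -0.12, that of all probes kept, and between 0.02 and 0.14 under 4 of the other 5 scalings. MYC was at -0.60 (limma adjusted p = 0.0799) in RPMI-8226. Of 70 ribosome biogenesis genes, 68 were called lower in MM.1S with a median of -0.99, and 63 under cyclic loess with a median of -0.63. Of the mitochondrial ribosomal protein genes, 72 of 76 were called lower with a median of -0.68 under the 75th percentile. Beside equally bright probes these medians were -0.69 and -0.34, against -0.09 for the cytosolic ribosomal proteins. The response differed between the lines for 30 of 70 biogenesis genes, 20 of 76 mitochondrial ribosomal genes and 8 of 81 cytosolic ribosomal protein genes, beside the 7.28% higher and 6.00% lower of all probes kept. Under quantile normalization, cyclic loess and spike-in scaling these counts were 32, 18 and 4 for biogenesis, 15, 6 and 1 for mitochondrial and 3, 3 and 3 for cytosolic ribosomal protein genes.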

How the data were processed

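The authors amplified and Cy3-labelled total RNA, hybridised it to human 1-colour arrays and deposited the scanner output of 16 arrays, in which each spot has a background-subtracted and detrended intensity that is not normalized between arrays (Agilent Feature Extraction version 10.7, per the submitters' processing notes). A deposited table of the whole series holds the same intensity values and served as an alternative. Control spots (4259 of 62976) and outlier spots were left out, spots of the same probe were averaged as log2 intensity minus the array's 75th percentile, and a probe was kept if some group had both its arrays well above background for it (23199 in RPMI-8226, 25102 in MM.1S, 26931 over both). A bright-end shift survives such scaling, so members were set beside non-member probes in 20 bins of mean level. limma 3.58.1 (R 4.3.3; lmFit, eBayes) was fitted over the 8 arrays of a line, and over 16 arrays between lines, with Benjamini-Hochberg adjustment over all probes kept and a threshold of 0.05. The fit of both inhibitors against DMSO was first tried in each line on simulated arrays with known changes, and the other comparisons were not. Given 2 arrays per group and 46.5 to 52.8% of spots well above background, precision is low for dim probes.

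Samples were grouped by the labels. In RPMI-8226 same-numbered samples deviated together in 6 of 6 pairs of groups (r 0.254 to 0.415 over probes), so the labels' replicate numbers were taken to pair them. The main fits did not use this pairing, which entered only as the replicate block among the alternatives. In MM.1S 5 of 6 pairs passed 0.1 (r 0.0847 to 0.225) and the numbers were not taken to pair. In both lines the arrays of replicate 1 lay in row 1 of the slide and those of replicate 2 in row 2. Replicate number and slide row therefore cannot be told apart. Named genes are the 5 largest called falls and rises with both inhibitors per line, the 5 largest called differences between lines, the 2 largest called falls and rises per single inhibitor, and the stalk, 5S particle, restricted paralog, PCR reference and disease-linked members. RPL36, RPL3, RPL8, RPL30, RPL31, RPL27A and single genes in lists of calls were named after their values were seen. Some genes within these rules are not reported here by name, though counts and medians include them. Members and lists were chosen with earlier results of these data known. Alternatives were 5 other scalings, 2 filters, the series table, a replicate block, an eBayes trend, other sample sets, other brightness bins, all probes of a gene and leaving out each array. The slide could not be used as a block, since each line lay on 1 slide.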

Additional observations from a re-analysis of the deposited data

Results flagged for a closer look

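The members below were singled out because their response, RPMI-8226 minus MM.1S, passed the limma interaction test. For UNC0638, RPS2 differed by 0.96, a call lost under cyclic loess and spike-in scaling (limma adjusted p 0.0769 and 0.0782) and without RPMI-8226 UNC0638 replicate 1, either MM.1S DMSO array or MM.1S UNC0638 replicate 2 (0.0505 to 0.0614). For both inhibitors, RPS2 differed by 1.08, RPS13 by 0.54, RPS16 by 0.54, RPL35 by 0.49, RPL5 by 0.47, RPL41 by 0.45 and RPS27L by -0.76. Of these, RPS2 and RPS27L were called under all 6 scalings and the others were not called under quantile normalization, cyclic loess or spike-in scaling. Leaving out 1 of the 16 arrays never ended the RPS2 call for both inhibitors, while that of RPL41 was lost without any array but the RPMI-8226 GSK126 pair (limma adjusted p 0.0544 to 0.111). The RPL35 call held without 1 of that pair or RPMI-8226 combination replicate 1, and was otherwise lost (0.0524 to 0.135). The RPL5 call held without 1 of the same arrays or RPMI-8226 DMSO replicate 1, and was otherwise lost (0.0572 to 0.112). In MM.1S given both inhibitors RPL35 was at 60.2% and RPL41 at 71.3% of DMSO, and in RPMI-8226 at 84.7% and 97.7%. Line and slide cannot be told apart in these differences.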

How the results depend on the processing

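Calls depended on scaling, on the fit and on single arrays, and 2 arrays per group limit all of them. Counts of members in this section are given without the share of all probes kept. The cause of each shift below was not tested, except that leaving out an array leaves fewer samples. Quantile normalization, cyclic loess, the percentile over detected probes and spike-in scaling gave median differences in MM.1S of -0.0314, -0.0091, -0.13 and -0.13 for GSK126, of -0.13, -0.0889, -0.34 and -0.19 for UNC0638, and of -0.13, 0.0443, -0.37 and -0.30 for both, and averaging all probes of a gene gave -0.60 for both. In RPMI-8226 quantile normalization and cyclic loess gave -0.0422 and -0.0242 for GSK126, quantile -0.0282 for UNC0638, and for both quantile -0.0296, cyclic loess -0.0253 and detected probes -0.16.

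Members called in MM.1S with quantile, cyclic loess and spike-in scaling were 14, 11 and 6 for UNC0638 (35 with no filter) and 31, 16 and 34 for both inhibitors. For both against GSK126 they were 13, 9 and 8, with 36 over detected probes, 32 with no filter and 34 on the compared groups only. For GSK126 alone the call was 0 under quantile, cyclic loess, detected probes, spike-in scaling, no filter, the compared groups only and all 16 arrays, 7 under normexp, 3 under the stricter filter, 2 with a replicate block and 31 with a trend. For both against UNC0638 it was 0 under quantile, detected probes, spike-in scaling, no filter, the compared groups only and all 16 arrays, 8 under normexp, 4 under the stricter filter, the replicate block or all probes of a gene, and 16 with a trend.

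In RPMI-8226, both inhibitors called 0 members under cyclic loess, detected probes, no filter and the compared groups only, 9 under spike-in scaling, 12 under normexp, 6 with the replicate block, 18 with a trend and 30 with all 16 arrays in 1 fit. All 16 arrays gave 1 for UNC0638, 1 for both against GSK126 (also 1 with a trend) and 2 for both against UNC0638. The UNC0638 response differed between lines for 0 members under cyclic loess, spike-in scaling and the compared groups only and for 6 with a trend. For both inhibitors it differed for 3 under quantile, cyclic loess and spike-in scaling, 2 with no filter or the compared groups only, 14 with the block and 19 with a trend. DMSO lines differed for 33 under quantile, 34 under cyclic loess, 33 under spike-in scaling and 35 on the compared groups only. The replicate block changed no other count by over 1.5 times.

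Beside equally bright probes the median for both inhibitors in MM.1S was -0.13 with 10 bins, -0.025 with brightness from DMSO, 0.022 under cyclic loess and -0.16 with the 100 nearest probes, that for UNC0638 -0.0794 under cyclic loess, and that for UNC0638 in RPMI-8226 -0.0193 under quantile and -0.0128 with the 100 nearest probes.

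Leaving out 1 array at a time gave in RPMI-8226 0 to 0 members for each single inhibitor and for both against either, 0 to 1 for both against DMSO, and medians of -0.19 to -0.07 (GSK126), -0.26 to -0.12 (UNC0638) and -0.36 to -0.20 (both). In MM.1S it gave 0 to 1 (GSK126), 22 to 63 (UNC0638), 67 to 77 (both), 26 to 53 (both against GSK126) and 0 to 0 (both against UNC0638), with medians of -0.22 to -0.19, -0.46 to -0.40 and -0.57 to -0.56. Between lines it gave 0 to 1 (GSK126), 0 to 2 (UNC0638), 2 to 15 (both) and 40 to 62 (DMSO).

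Signs turned for single members. With both inhibitors in MM.1S, quantile normalization put RPLP1 at 0.10, RPLP2 at 0.13, RPL10L at 0.12, RPS18 at 0.13 and RPL22 at 0.0331, and cyclic loess put RPLP0 at 0.25, RPLP1 at 0.33, RPLP2 at 0.34, RPL11 at 0.15, RPL10L at 0.18, RPS18 at 0.34, RPL10 at 0.21, RPL22 at 0.0548 and RPS19 at 0.19. RPL3L was at 0.0498 over detected probes, 0.12 under spike-in scaling, 0.10 without MM.1S DMSO replicate 1 and 0.14 without combination replicate 2, and ran from -0.41 to 0.14 over the single arrays left out. In RPMI-8226, quantile put RPLP1 at 0.0872, RPS18 at 0.0805 and RPL22 at 0.0906, and cyclic loess RPLP0 at 0.0842, RPLP1 at 0.0918, RPL11 at 0.0125, RPS18 at 0.0737 and RPL22 at 0.0618. RPS27L there was at -0.0898 under spike-in scaling, -0.11 without DMSO replicate 1 and -0.00419 without combination replicate 2.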
